A study of Homo sapiens with 4 samples.

Results

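Long clusters of ELF5 peaks are stretches of the genome in which 50 or more peaks followed each other with no gap over 12.5 kb. They were found by sorting the peaks of chromosomes 1 to 22 by their start and joining neighbours across gaps of up to 12.5 kb, measured from the end of a peak to the start of the next. This gave 164 long clusters holding 14715 of the 115384 peaks in the list, which is 12.8%. The spacing and number of peaks chose the clusters, and the other values of a peak come from the same ChIP list. The values are therefore given as a description, with no test.

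The peaks come from ChIP-seq of ELF5 in T47D, an established human breast epithelial line of the luminal A type, grown untreated in RPMI with 10% serum and insulin. ELF5 was precipitated in 3 replicates, which the labels do not tie to separate cultures, and 1 input sample of the same line was also sequenced. The labels give an antibody code for the ELF5 samples, while their protocol text lists antibodies to other factors in other lines. The data were a single peak list on hg19 without values for the replicates, so nothing here carries a replicate error, and the track name does not make clear whether it refers to replicates 1 to 3 or to replicates 1 and 3.

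ELF5 is an ETS-family transcription factor, and ETS proteins bind DNA through a domain that reads a GGAA core. In the mammary gland ELF5 acts downstream of prolactin and drives the alveolar, milk-secreting differentiation of luminal progenitors. Joining neighbouring peaks of a factor is a common way to find domains with many binding sites, such as super-enhancers, which are defined by their summed signal. The long clusters were defined by the number of peaks alone, and no histone mark or co-activator was measured here.

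The long clusters were long runs of mostly weak peaks with a few strong ones among them, and at this joining gap 88 of the 164 lay in the first or last band of a chromosome. Strong peaks are the strongest 10% of the list by the authors' fold enrichment over local background, which begin at a fold of 11.99. A cluster held from 50 to 460 peaks, with a median of 66. Its span ran from 69.0 kb to 957 kb, with a median of 167 kb, and 6 clusters covered at least 500 kb. Clusters of 100 peaks or more numbered 34 and held 6192 of the 14715 peaks. In all, the clusters spanned 32.7 Mb, of which 4.90 Mb or 14.99% lay under peaks. Peaks were 0.451 per kb of cluster, and clusters ranged from 0.260 to 0.807 per kb.

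The median gap between neighbouring peaks was 964 bp in long clusters and 1535 bp in regions of 10 to 49 peaks, a difference that follows in part from choosing runs with many joins. The widest gap inside a cluster had a median of 10990 bp over clusters, so most clusters had at least 1 gap close to the limit. The 4 clusters of 50 peaks, just inside the threshold, spanned 90.3 to 148.5 kb and held 1 to 5 strong peaks. The 3 regions of 49 peaks, just outside it, spanned 111 to 127 kb and held 0 or 1. The 4 regions of 48 peaks held 0 to 10 strong peaks and the 6 regions of 47 held 1 to 6.

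**Figure D1:**
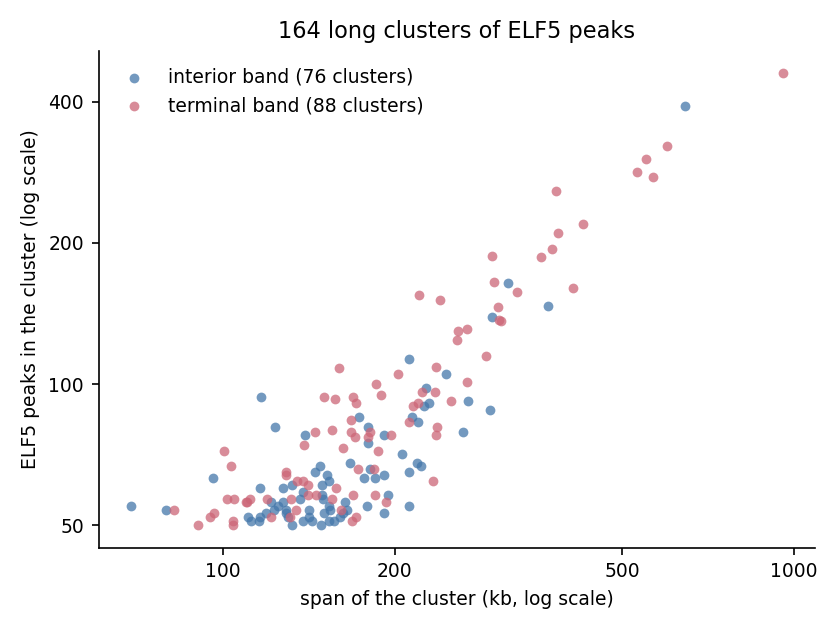
Number of ELF5 peaks (vertical axis, log scale) against span in kb (horizontal axis, log scale) for each of the 164 long clusters, 1 point per cluster, coloured by whether the middle of the cluster lies in the first or last band of its chromosome. Clusters in terminal bands (88) and interior bands (76) overlap in the lower range, and 8 of the 9 clusters of 200 peaks or more are terminal.

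At the joining gap of 12.5 kb, long clusters lay in terminal bands more often than stitched regions in general. Their share in terminal bands depended on the gap. Terminal bands are the first and last Giemsa band of each chromosome. Of all 33513 stitched regions of the autosomes 8.24% lay in terminal bands, and of the 164 long clusters 88 did, which is 53.7%. The regions include 17586 single peaks, of which 5.53% were terminal, and among regions of 10 to 49 peaks 20.2% were. With a joining gap of 25 kb the share of long clusters in terminal bands was 29.4% of 327. The share over all stitched regions was not taken at that gap. Of all autosomal peaks 20.4% lay in terminal bands, against 22.8% of the peaks in regions of 10 to 49 and 62.8% of those in long clusters. The share of clusters in terminal bands was 41.5% for 50 to 74 peaks, 58.3% for 75 to 99, 80.0% for 100 up to 200 and 88.9% for 200 or more. Of the 44 terminal bands of the autosomes, 22 held a long cluster.

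Distance from the chromosome end gave a similar picture. The middle of 92 clusters lay within 5 Mb of an end, and the median distance over clusters was 3.77 Mb. Another 43 clusters lay more than 20 Mb from an end, and the most interior lay 92.6 Mb away. Among autosomal peaks in general 23.1% were within 5 Mb of an end, against 26.8% in regions of 10 to 49 peaks and 67.6% in long clusters.

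Nearly all long clusters lay in lightly staining bands, which are the gene-rich, early-replicating part of the genome by textbook knowledge. Unstained bands held 141 of them and the palest stained class 14. The remaining 9 lay in darker bands, 5 in gpos50 and 3 in gpos75, and in 1 centromeric band. Of all stitched regions 63.9% lay in light bands, of regions of 10 to 49 peaks 87.6% and of long clusters 94.5%. Of all autosomal peaks 78% lay in light bands, against 88.6% of the peaks in regions of 10 to 49 and 95.7% of those in long clusters.

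Some bands carried many long clusters. The 164 clusters fell in 72 bands, and 12 bands held 5 or more. Band 8q24.3 held 10 clusters with 1214 of its 1782 peaks. In 9q34.3, which held the middle of 9 clusters, 1089 of 1490 peaks lay in long clusters. Some of these belonged to a cluster with its middle in 9q34.2. Band 17q25.3 had 9 clusters with 1036 of its 1824 peaks, 20q13.33 had 7 with 905 of 1327, and 16p13.3 had 8 with 749 of 1363. Band 7p22.3 had the largest part of its peaks in long clusters among these, 876 of 1088 or 80.5%, in 5 clusters. By textbook assignment 9q34.3 carries NOTCH1, a receptor of cell-fate signalling, and 17q25.3 carries FASN, the fatty acid synthase used in milk fat synthesis. Which genes lie under the clusters was not analysed here.

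Chromosomes differed widely in how many of their peaks were in long clusters. Chromosome 9 had 32.3% of its 5848 peaks in 18 clusters, chromosome 16 had 30.03% of 6064 in 15, and chromosome 17 had 23.7% of 8084 in 24. Chromosomes 21, 8 and 20 followed with 22.01%, 21.5% and 20.5%. Chromosomes 2 and 18 had no long cluster, and their richest stitched regions held 28 and 16 peaks. Chromosome 1 had the most peaks of all, 10140, and only 4.43% of them were in long clusters. Chromosome 19, with 5532 peaks, had 6.42% of them in 6 clusters.

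**Figure D2:**
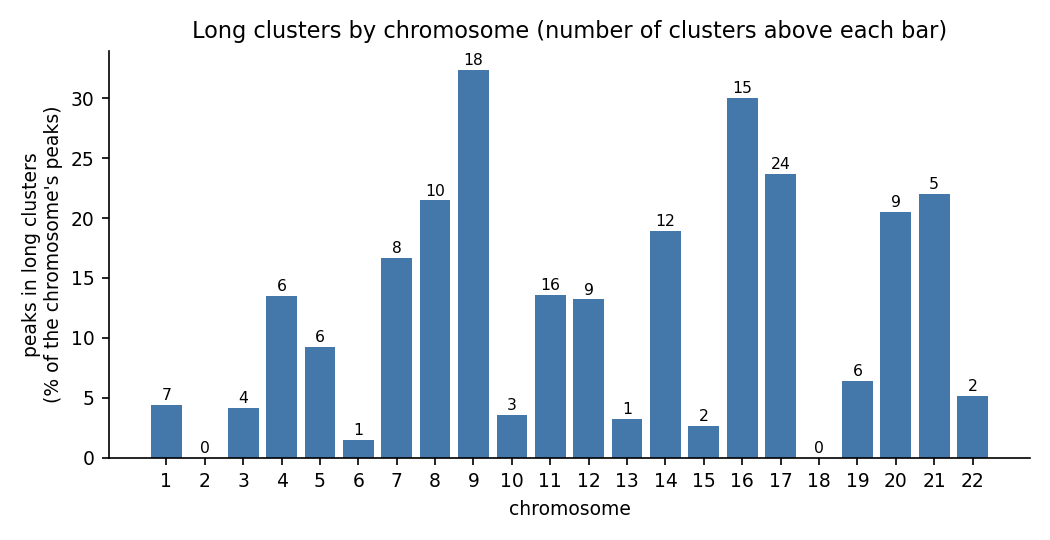
Share of each autosome's ELF5 peaks that lay in long clusters (bars, percent, starting at 0), with the number of long clusters printed above each bar. Chromosomes 9 and 16 stand highest at 32.3% and 30.03%, and chromosomes 2 and 18 are at 0.

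By fold, peaks in long clusters were weak compared with other peaks. Their median fold was 3.27, with an interquartile range of 2.77 to 4.203, against a median of 3.65 over all autosomal peaks. Of all autosomal peaks 9.9% were strong, and of the peaks in long clusters 852 were, which is 5.79%. Of all autosomal peaks 87.4% had the authors' q under 0.05, against 82.5% in long clusters. In 136 of the 164 clusters the median fold was below the autosomal median, and in 31 the share of strong peaks was above the autosomal share.

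The share of strong peaks was lower in larger stitched regions. It was 14.5% for peaks that stood alone, 10.8% in regions of 2 to 9, 8.10% in regions of 10 to 49 and 6.62% in clusters of 50 to 74. Clusters of 75 to 99, of 100 up to 200 and of 200 or more peaks had 6.03%, 4.90% and 4.99%. Median folds ran in the same order, from 3.91 for single peaks to 3.11 in clusters of 200 or more. Fold and region size come from the same list, so this order is no separate result.

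Long clusters held 26.1 strong peaks per Mb of span, regions of 10 to 49 peaks 27.4 and regions of 2 to 9 peaks 38.8. The value over all autosomal regions, 41.5, includes single peaks, which span only their own width and had 422.6 per Mb. Span runs from the first to the last peak of a region, so these are not densities over the genome. Over all peaks the densities were 0.451 per kb in long clusters, 0.338 in regions of 10 to 49 and 0.359 in regions of 2 to 9. The rule chose long clusters by the number and spacing of their peaks, so the densities over all peaks are set in part by it.

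**Figure D3:**
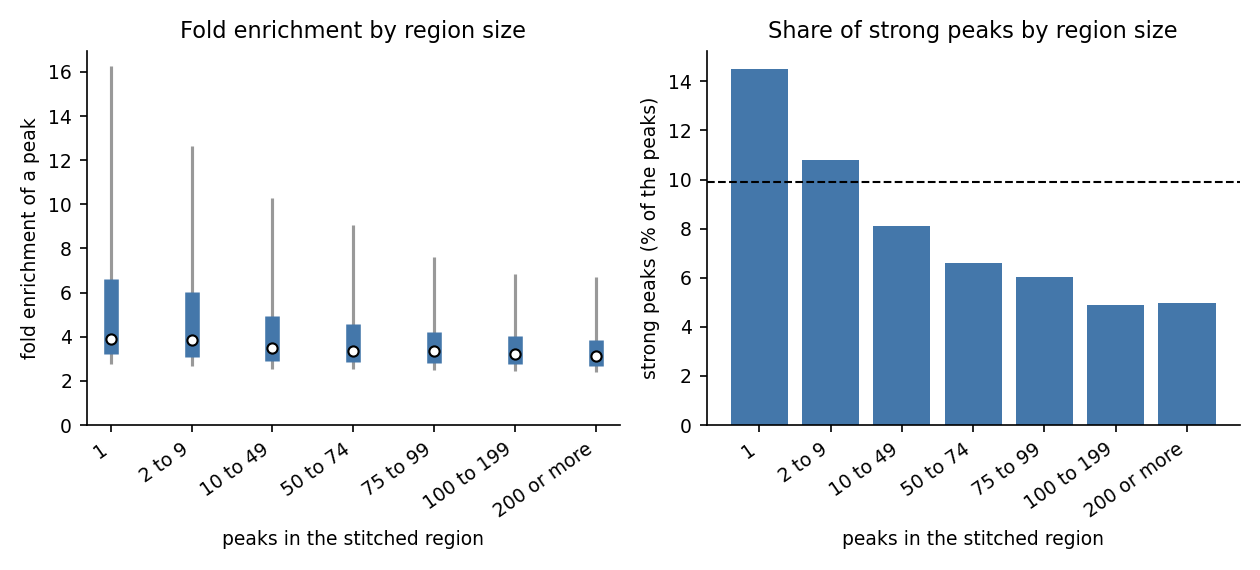
Left, fold enrichment per ELF5 peak by the number of peaks in its stitched region: circles are medians, blue bars the interquartile range and grey lines the 10th to 90th percentile. Right, percent of peaks that are strong, with the dashed line at the autosomal share of 9.9%. Medians go from 3.91 for single peaks to 3.11 in clusters of 200 or more peaks, and the share of strong peaks goes from 14.5% to 4.99%.

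The depth behind a typical peak of a long cluster was low. The fragment pileup, recovered from the authors' fold and p, was 16 at the median peak (exact Poisson 95% interval 9.15 to 26.0). At that pileup and the median fold of 3.27, the interval of the fold was 1.96 to 5.17, so typical members cannot be ranked. These intervals cover counting error only and hold the background fixed. The median pileup was also 16 over all autosomal peaks, in regions of 10 to 49 and in regions of 2 to 9, and it was 15 at single peaks. Strong peaks of long clusters had a median pileup of 105, against 93 for strong autosomal peaks in general.

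Local background, the number of fragments that the peak was compared with, was somewhat higher in long clusters. Its median was 3.78 fragments, against 3.44 in regions of 10 to 49 peaks, 3 in regions of 2 to 9 and 2.84 at single peaks. The lowest background of the list, 1.81, occurred at 1.305% of peaks in long clusters and at 15.6% of single peaks. Since fold is a ratio to this background, shares were also taken within ranges of it. At a background of 2.2 to 3.2 the share of strong peaks was 3.601% in long clusters, 7.39% in regions of 10 to 49 and 10.6% in smaller ones. At 3.2 to 4.2 the shares were 5.10%, 6.18% and 11.2%. At 4.2 to 6.2 they were 8.56%, 10.8% and 15.51%. Below 2.2 and from 6.2 upward long clusters also had the lowest share, 8.49% and 6.99%.

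Members were also compared with peaks nearby. In the 73 bands that held member peaks, 5.79% of the members were strong, against 8.09% of the 26091 peaks outside long clusters and 15.2% of the 1629 that stood alone. Over all autosomes 14.5% of the peaks that stood alone were strong. Median folds were 3.27 inside and 3.43 outside. Among 71 bands with at least 50 peaks of each kind, the share of strong peaks was lower inside in 50 and higher in 21. Against the 500 kb on either side, 106 of 163 clusters had a lower share and 57 a higher one, while the median fold was lower in 84 of the 163. These flanks include peaks of neighbouring long clusters, so this last comparison is in part between members.

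Although strong peaks were less frequent, those in long clusters were wide. Strong peaks had a median width of 949 bp in long clusters, 812 bp in regions of 10 to 49 and 822 bp over all autosomes. Of all autosomal peaks 0.449% covered at least 2000 bp, and of the peaks in long clusters 99 did, or 0.673%. Among strong peaks such broad ones made up 9.86% in long clusters, 4.96% in regions of 10 to 49 and 2.61% in smaller regions. The median fold of the strong peaks was close in all of these, 17.97, 18.2 and 19.1. Broad peaks occurred in 61 long clusters, and 7 clusters held 3 or more.

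The broadest member, in 17q25.3 on chromosome 17 from 79824906 to 79830206, covered 5301 bp with a fold of 34.5 (29.6 to 39.9 by the same kind of interval). The next was a peak of 4820 bp in 16q24.1, at a fold of 20.7, and one of 4252 bp in 14q32.33, at a fold of 10.8 and thus below the strong range. The fourth, of 4013 bp, lay in 7p22.1, the band that carries ACTB, the gene of cytoplasmic beta-actin, and had a fold of 19.5. The cluster with the most broad peaks, 7, was that of 322 peaks in 16q24.3. The cluster of 392 peaks in 16q24.1 had 6 and that of 258 peaks in 9q34.3 had 5.

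The strongest single sites of the list were seldom inside long clusters. None of the 10 strongest autosomal peaks, 3 of the 100 strongest and 63 of the 1000 strongest were members, while members made up 12.9% of autosomal peaks. The strongest member lay in 16p13.3 on chromosome 16 from 2317697 to 2319140, at a pileup of 188, a background of 2.30 and a fold of 52.2 (45.1 to 60.2). It ranked 72 in the whole list. The next, in 11q13.1 on chromosome 11 from 64071775 to 64074500, had a pileup of 236 over 3.13 and a fold of 52.2 (45.8 to 59.3). The third, in 9q34.3 on chromosome 9 from 140317043 to 140318655, had a fold of 50.3 (43.8 to 57.5). The next 7 lay in 10q26.3, 16p13.3, 16q24.2, 5q31.2, 17q25.3, 8q24.3 and 11q13.2, at folds from 46.98 down to 45.1. The counting intervals of these 10 peaks overlapped, so their order was not resolved.

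Most clusters had at least 1 high peak. The strongest peak of a cluster had a fold from 7.22 to 52.2 with a median of 27.4, and in 67 clusters it reached 30 or more. In regions of 10 to 49 peaks the median of the strongest fold was 16.8, and in regions of 2 to 9 it was 7.07. The strongest peak of a long cluster made up between 1.59% and 16.4% of the summed fold of its cluster. The number of strong peaks per cluster ran from 0 to 29 with a median of 4. In 6 clusters there was none, in 20 there was 1, and in 23 there were 10 or more. Of the 1865 regions of 10 to 49 peaks 615 had no strong peak, and of all 33513 stitched regions 25309 had none. The strongest peak of a long cluster had no fixed place: it lay within 10% of the span from either end in 34 clusters and in the middle 20% in 37.

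Strong peaks mostly had weaker peaks between them, which follows in part from their being only 5.79% of the members. Whether they were more grouped or more spread than their number implies was not tested. In the 138 clusters with at least 2 strong peaks, the median over clusters of the median distance between them was 21242 bp, while neighbouring summits of any strength lay 1323 bp apart. The longest run of neighbouring peaks without a strong one had a median of 30 peaks and reached 132, in the cluster of 460 peaks in 7p22.3. A strong peak's nearest neighbour lay at a median of 1036 bp, and that of other peaks at 780 bp. Strong peaks were also wider, at a median of 949 bp against 225 bp for all members. How much of the difference in distance follows from width was not tested. Of the 1612 members next to a strong peak, 7.69% were strong themselves, against 5.56% of the others. Spearman's rho between the folds of neighbours was 0.089 over 14551 pairs, which share their local background, and 0.13 over 32971 pairs in regions of 10 to 49.

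The members were also joined again after weaker peaks had been left out, which by construction can only widen the gaps. With only the 12133 members at q under 0.05, 102 clusters stayed in 1 piece and 87 still had 50 or more joined peaks. With only members at a fold of at least 5, which number 2665 or 18.1%, no cluster had 50 joined peaks and the longest piece held 25. The 852 strong members alone gave 552 pieces, of which 371 were single peaks and the longest held 11.

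The cluster richest in peaks, in 7p22.3 on chromosome 7 from 841466 to 1798455, was also the longest at 957 kb. Its 460 peaks had a median fold of 3.15, and 21 of them were strong. Cut into 5 equal parts from its start, it held 7, 5, 0, 6 and 3 strong peaks, and the middle part reached a fold of only 9.35 although it held 86 peaks. The strongest, from 984578 to 986006, had a fold of 31.1 (25.8 to 37.0). A neighbour in the same band, from 285179 to 661944, had 194 peaks and only 2 strong ones, the higher a broad peak of 3761 bp at a fold of 24.1.

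Chromosome 9 carried the cluster with the most strong peaks. It lay in 9q34.3 from 139835540 to 140218386 and held 258 peaks, of which 29 or 11.2% were strong, the highest at a fold of 37.1 (32.2 to 42.6). Its 5 equal parts held 3, 9, 1, 11 and 5 strong peaks, while the median fold of the parts stayed between 3.03 and 3.199. Strong peaks were thus unevenly shared among these parts, and whether they were grouped was not tested. The parts with 9 and 11 strong peaks had the highest median backgrounds, 4.93 and 4.32 fragments. A cluster of 284 peaks from 139288123 to 139820024 ended just before that of 258 peaks, had 16 strong peaks and reached a fold of 28.6.

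**Figure D4:**
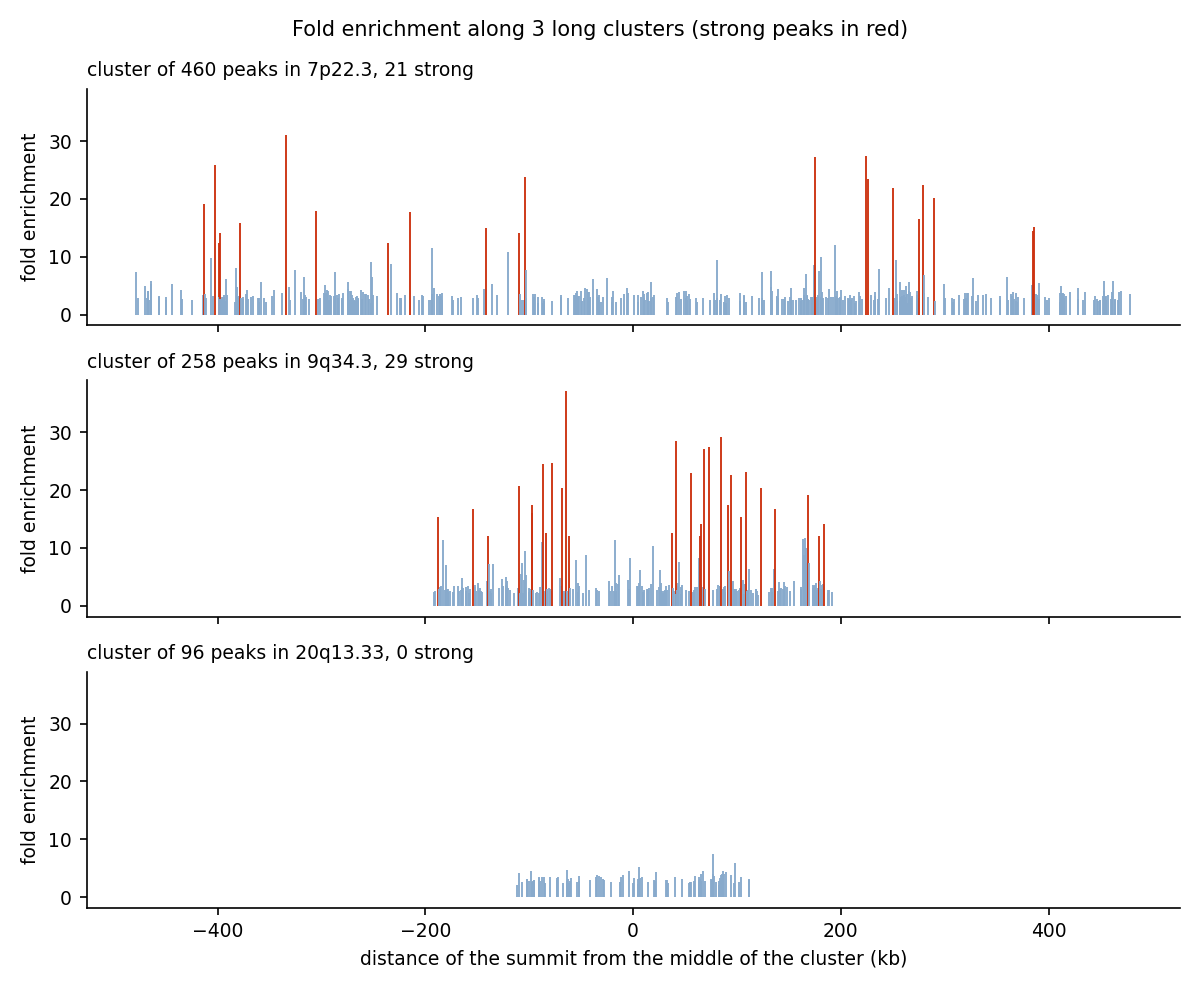
Fold enrichment of each ELF5 peak (vertical lines) against the distance of its summit from the middle of the cluster in kb, for the cluster with the most peaks (7p22.3, 460), the cluster with the most strong peaks (9q34.3, 258) and the largest of the 6 clusters without a strong peak (20q13.33, 96). Strong peaks are red. The upper clusters show 21 and 29 strong peaks among many low ones, and in the third the highest fold is 7.46.

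Of the other clusters with the most peaks, that of 322 peaks in 16q24.3 spanned 600.001 kb with 16 strong peaks and a highest fold of 32.6. In 8q24.3 a cluster of 302 peaks over 551 kb had 7 strong peaks and a highest fold of 32.4. In 17q25.3 a cluster of 277 peaks over 567 kb had 13 strong ones and reached 30.8. The cluster of 220 peaks in 12q24.33 had 6 strong ones and reached 22.4, and that of 210 peaks in 5p15.33 had 7 and reached 29.9. Another 2 clusters had many strong peaks for their size, 18 of 187 in 16p13.3 and 17 of 147 in 9q34.11.

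The share of strong peaks was highest in 2 clusters of 19p13.3. One on chromosome 19 from 2455627 to 2648884 had 13 strong of 56 peaks, 23.2%, a median fold of 4.80 and a highest fold of 38.7. The other, from 1055168 to 1210066, had 11 of 57, 19.3%, and a highest fold of 37.1 (30.7 to 44.5) over a background of only 1.82. Clusters in 12q13.11, 17p13.1 and 22q13.33 followed with 16.4%, 15.7% and 15.7%. All long clusters of chromosome 19 together had 14.4% strong peaks at a median background of 2.03, and the chromosome as a whole had 16.4% at 2.08. Long clusters of chromosome 22 had 13.0%, at a median background of 2.13, and that chromosome as a whole had 11.01% at 2.03. How much of these high shares goes with the low background was not tested.

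At the other end, the 5 largest clusters without a strong peak held 64 to 96 peaks. They lay in 20q13.33 (96 peaks), 21q22.3 (92), 8q24.3 (79), 17q25.3 (73) and 9q34.11 (64). Their highest folds were 7.46, 11.9, 10.99, 7.22 and 8.24. The median fold was 3.05 to 3.56 in these clusters, not far from the 3.27 of all members. The cluster in 20q13.33, on chromosome 20 from 60261610 to 60484663, had a highest pileup of 37 over a background of 3.65. In the same band the cluster of 155 peaks from 60870420 to 61091124 reached a fold of 44.9 (39.9 to 50.3), on a pileup of 295.

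The densest cluster per kb was the only one in a centromeric band. It lay in 12p11.1 on chromosome 12 from 34442565 to 34559102 and held 94 peaks in 117 kb, or 0.807 per kb. Only 1 of its peaks was strong, at a fold of 13.4, and its median background was 2.70, below the 3.78 of all members. The band held 116 peaks in all, and within 500 kb of the cluster there were 19 others. The next densest was a cluster of 55 peaks in 69.0 kb in 17q21.2, the shortest of all, where 7 peaks were strong and the highest fold was 32.2. Clusters in 14q32.33 and 20q13.33 followed with 0.719 and 0.702 per kb, and then one of 54 peaks in 79.4 kb in 5q31.2, which reached a fold of 46.1.

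The cluster of 392 peaks in 16q24.1, on chromosome 16 from 85235799 to 85881627, stood apart from the other long clusters by its background. Its median background was 8.00 fragments, and the peaks in the 500 kb on either side had medians of 4 and 3.96. The ratio of 2 was the highest of the 163 clusters with at least 20 flanking peaks, which could belong to other long clusters. The next highest was 1.33, the median was 1.00 and the interquartile range 0.96 to 1.06. Of its peaks 82.9% had a background of 6 or more, against 9.97% of the peaks in the other clusters. By textbook assignment the band carries IRF8, an interferon regulatory factor, and whether that gene lies in the cluster was not analysed here.

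The higher background of the 16q24.1 cluster began and ended within it. In windows of 50 kb counted from the start of the cluster, the median background was 3.92, 4.32 and 5.198 in the first 150 kb. It was between 8.00 and 9.59 in every window from 150 to 600 kb and 4.08 in the window from 600 to 650 kb. In the 300 kb before the cluster the windows had medians of 3.52 to 5.40. The stretch from 150 to 600 kb, chosen after the profile was seen, held 67.3 peaks per 100 kb, and the rest of the cluster 45.4.

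Pileups were higher in the 16q24.1 stretch, as the background was, and folds were not. The median pileup was 28 within the stretch and 18 in the rest of the cluster, and the median folds were 2.79 and 3.13. The share of strong peaks was 5.28% within and 5.62% outside, and the share at q under 0.05 was 89.4% within and 78.7% outside. The highest peak of the cluster, from 85355447 to 85356041, had a fold of 30.7 (26.9 to 34.9). Local DNA copy number and other sources of a local excess of fragments were not measured here, and their part in the number of peaks was not tested. Without this cluster the other 163 had 5.80% strong peaks and a median fold of 3.28.

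**Figure D5:**
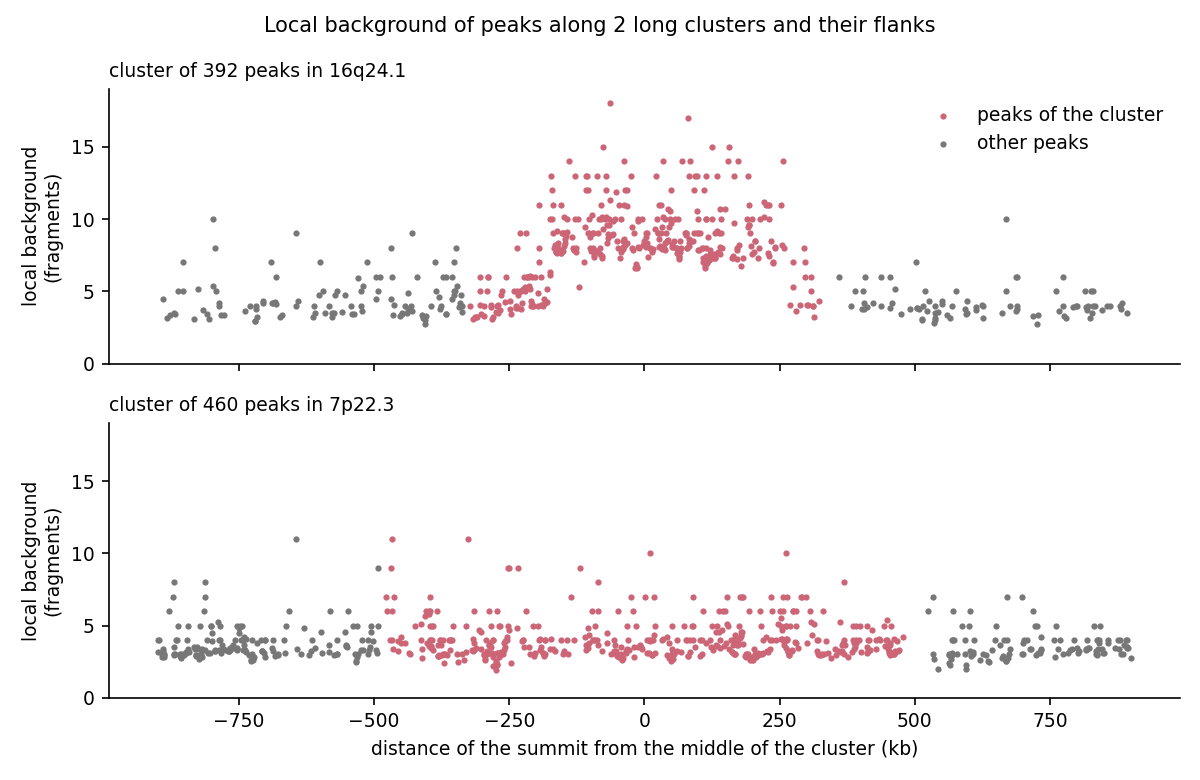
Local background in fragments (vertical axis) of each ELF5 peak against the distance of its summit from the middle of the cluster in kb, for the cluster of 392 peaks in 16q24.1 (top) and that of 460 peaks in 7p22.3 (bottom), with cluster peaks in red and other peaks in grey. In 16q24.1 the background steps up to medians of 8.00 to 9.59 over 450 kb inside the cluster, and the 7p22.3 cluster shows no such step.

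Backgrounds above 5 also occurred in clusters of 3q29 and 11q25, where they did not set the cluster apart from its band. In 3q29 a cluster of 94 peaks had a median background of 6.75, against 7 for the other peaks of the band, and 2 strong peaks. In 11q25 clusters of 90 and 54 peaks had 5.47 and 5.36, against 5.00 outside, and held 1 and 2 strong peaks. These were all 3 strong peaks of that band, which had 439 peaks.

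Terminal and interior long clusters were also set side by side. Terminal clusters had a median of 79 peaks and interior ones of 60, with 0.480 and 0.402 peaks per kb. Strong peaks made up on average 5.77% ± 4.66 (SD, 88 clusters) of a cluster in terminal bands and 6.71% ± 4.07 (SD, 76 clusters) in interior bands, and the ranges overlapped. Pooled over their peaks the shares were 5.36% and 6.51%. The median fold of their peaks was 3.26 and 3.29. The median background was 3.51 fragments in terminal clusters and 4 in interior ones. Over the 164 clusters, Spearman's rho of the share of strong peaks was -0.17 with the number of peaks and 0.078 with the median background, given as a description of clusters that share 1 list.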

How the data were processed

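The authors' deposited list of ELF5 peaks uses hg19 coordinates, as its track line and the submitters' processing notes say. Not given in the sources used here are the peak caller and its threshold, the aligner, the role of the input and any pooling of replicates. The deposited score is the whole part of 10 times −log10 p. The authors' −log10 p and −log10 q were not altered. The deposited signal value carries no unit in the file and was read from its values as the ratio of ChIP to local background, that is a fold enrichment. All of these are the authors' values per peak.

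Pileup and background were worked back from the authors' fold and p: whole pileups times 0.910, with 1 added to both terms of the fold, and p as a Poisson tail. All 115384 deposited p-values were met to within 0.001 on the −log10 scale, and for 95 peaks another pileup came as close. On 2987 simulated peaks 100% of pileups were recovered, and the joining step found all 16 simulated clusters. The total reads per sample are unknown.

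Bands came from the table in circlize 0.4.16 (R 4.3.3), whose ends equal the lengths of 22 autosomes in GenomeInfoDb 1.38.1. A cluster's band is that of its middle, a peak's that of its summit. Python 3.11.15 was used with pandas 2.3.3, numpy 2.4.6, matplotlib 3.10.9 and scipy 1.17.1. Positions count from 1. The clusters, lists and groupings were chosen with earlier results of these data known. Clusters were named by number of peaks, span, strong peaks, their share and peaks per kb, and by lowest number of peaks. The clusters of 3q29 and 11q25 and the broad peaks were singled out after their values were seen. Genes and sequences under the peaks were not analysed here, as no hg19 sequence or annotation was used.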

Additional observations from a re-analysis of the deposited data

How the results depend on the processing

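The number and size of the long clusters depend on how they are defined. Of 34 alternative values 29 counted as moved, by a change of more than 1.5-fold in a count or a median or share outside its own 95% interval. These intervals treat neighbouring peaks as independent and are narrow. Some moves were fixed by construction, such as the share among the strongest 5% or 20% and the median fold of a list restricted by fold. There were 164 clusters with 14715 peaks as reported. With a joining gap of 6.25 kb there were 53 clusters with 3730 peaks, a median fold of 3.21, 5.34% strong peaks and 69.8% of clusters in terminal bands. With 25 kb there were 327 with 35468 peaks, a median fold of 3.35, 7.14% strong and 29.4% terminal. With only peaks at q under 0.05 there were 93 with 7967 peaks, a median fold of 3.46, 7.04% strong and 67.7% terminal, overlapping 87 of the 164. With only the highest 50% of peaks by fold 2 clusters with 113 peaks were left, in 16p13.3 and 9q34.3, at a median fold of 6.35, 26.5% strong and 100% terminal. A minimum of 75 peaks gave 70 clusters with 9277 peaks, a median fold of 3.21, 5.30% strong and 70.0% terminal. A minimum of 40 gave 247 clusters. The share of members among the strongest 5% by fold was 2.68% (4.96% over autosomal peaks), among the strongest 20% it was 12.3% (19.8%), and among the strongest 10% by p it was 6.67% (9.97%). No rows of the list overlap, so merging changed nothing. No paired analysis was possible because replicates have no values of their own in the file, and leaving out replicates was not run for the same reason. At a median pileup of 16, typical members cannot be ranked.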
